A study of Mus musculus with 10 samples.

Results

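The cells described here are 92 barcodes with abundant transcripts of Aqp2, the vasopressin-regulated water channel of the collecting duct, out of 4376 barcodes in a pair of single-cell libraries of mouse kidney. The members were selected on their own counts: a barcode was taken when it held at least 3 unique molecular identifiers (UMIs) of Aqp2 and fewer than 2 of Slc12a3, the sodium-chloride cotransporter of the distal convoluted tubule. The rule took 64 of 3063 barcodes of the injured kidney library (2.09%, 95% Clopper-Pearson interval 1.61 to 2.66%) and 28 of 1313 barcodes of the uninjured library (2.13%, interval 1.42 to 3.07%). The shares lay within each other's intervals, which cover counting error only. Among barcodes with at most 20% mitochondrial UMIs, the rule took 49 of 2380 in the injured kidney library and 17 of 548 (3.10%) in the uninjured library. This 3.10% lies above both intervals. The shares are of all barcodes and not of tubule cells. Slc34a1, a proximal tubule gene, was found in 35.1% of the other barcodes of the injured kidney library and 83.3% of those of the uninjured library. The 92 barcodes are called Aqp2 barcodes below, because part of them also carried connecting tubule genes.

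Principal cells line the collecting duct. They take up sodium through the epithelial sodium channel, secrete potassium, and take up water through aquaporins under the control of aldosterone and vasopressin. Intercalated cells, which handle acid and base, lie between them.

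The IRI library came from a kidney of a C57/BL6 mouse at 8 week of age after ischaemia-reperfusion injury (abbreviated IRI), in which 1 renal artery was ligated for 15 minutes and the organ was taken 2 weeks later. Its counterpart came from an uninjured kidney of the same strain and age. In both cases live cells were sorted by exclusion of DAPI after digestion on ice and prepared with the 10x 3' v2 chemistry; no transgene or drug is given for either mouse. Each condition has 1 library, so no difference between conditions has a replicate check, no test was made, and intervals cover counting error only.

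The Aqp2 barcodes held a median of 2619.5 UMIs and 1315.5 genes in the IRI library and 3070 UMIs and 1369.5 genes in the uninjured library, against 1999 and 2358 UMIs among the other barcodes of each. Their summed depth was 187196 UMIs in the IRI library and 84655 UMIs in the uninjured library. Mitochondrial transcripts made up a median of 11.2% of UMIs in IRI Aqp2 barcodes and 14.0% in uninjured ones, while in the other barcodes this share was 5.80% in the IRI library and 23.9% in the uninjured library. The libraries shared 8 barcode sequences, 0 of them among the Aqp2 barcodes. The Slc12a3 limit removed no barcode, since the Aqp2 barcodes of both libraries held 0 UMIs of Slc12a3.

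Aqp2 itself chose the barcodes, so its level is a description. It ran from 3 to 165 UMIs per barcode in the IRI library, with a median of 19, and from 3 to 142 in the uninjured library, with a median of 23.5. At the threshold, 1 IRI barcode and 2 uninjured barcodes held exactly 3 Aqp2 UMIs, and 8 IRI barcodes and 2 uninjured barcodes held 2. Of those just below it, 6 of the 8 IRI barcodes and 1 of the 2 uninjured barcodes carried at least 2 of the 4 other principal cell markers. A further view of what the rule left out is that 23 IRI barcodes and 3 uninjured barcodes below 3 Aqp2 UMIs carried at least 3 of these 4 markers.

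The stretch of 250 bases before the Aqp2 transcription start is shown because Aqp2 defines the cells and the GATA factor transcripts Gata2 and Gata3 were among those they carried. It lies at chr15:99578806-99579055 on the plus strand of GRCm38.p6, from RefSeq, and the capitals mark a GATA-type motif, AGATAA or its reverse complement TTATCT.
Aqp2: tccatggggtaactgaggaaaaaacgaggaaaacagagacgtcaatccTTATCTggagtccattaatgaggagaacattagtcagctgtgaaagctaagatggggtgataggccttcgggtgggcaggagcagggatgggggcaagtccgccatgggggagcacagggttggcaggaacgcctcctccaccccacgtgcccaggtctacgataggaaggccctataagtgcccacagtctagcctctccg
The motif begins 202 bases before the start. Letters of this motif on either strand occur in 9.99% of the 32851 windows of the same length in the RefSeq table. Of the 9 windows found for the 12 genes with the greatest excess in Aqp2 barcodes, only that of Aqp2 itself holds it. A match of letters is a description of the window and not of binding.

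The 4 markers that the rule did not name were found in most Aqp2 barcodes. Hsd11b2 protects the mineralocorticoid receptor from glucocorticoids, Fxyd4 modulates the sodium pump, Aqp3 is the basolateral water channel and Scnn1b is a subunit of the epithelial sodium channel. With every barcode thinned to 1000 UMIs, Hsd11b2 was detected in 85.9% of IRI Aqp2 barcodes and 89.3% of uninjured ones, and Fxyd4 in 81.2% and 85.7% of the same sets. Aqp3 was detected in 57.8% of IRI Aqp2 barcodes (interval 44.8 to 70.1%) and 85.7% of uninjured ones (67.3 to 96.0%), and Scnn1b in 34.4% of IRI and 39.3% of uninjured ones. Without thinning, Aqp3 was detected in 78.1% of IRI Aqp2 barcodes and 96.4% of uninjured ones. Among the other barcodes none of the 4 exceeded 3.27% at 1000 UMIs in either library. Intercalated barcodes, defined below, held 80 of the 153 Aqp3 UMIs outside the IRI Aqp2 barcodes. In the uninjured library they held 40 of 149, and the 149 were spread over 114 barcodes. The source of marker UMIs outside the Aqp2 barcodes was not tested. Thick limb barcodes, with a median of 2530 UMIs in the IRI library and 3322 UMIs in the uninjured one, held 0 UMIs of Aqp3 in both. All 4 markers occurred together in 35 of 64 IRI and 18 of 28 uninjured Aqp2 barcodes, at least 2 of them in 58 and 28, and none in 1 IRI barcode and 0 uninjured ones.

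**Figure D1:**
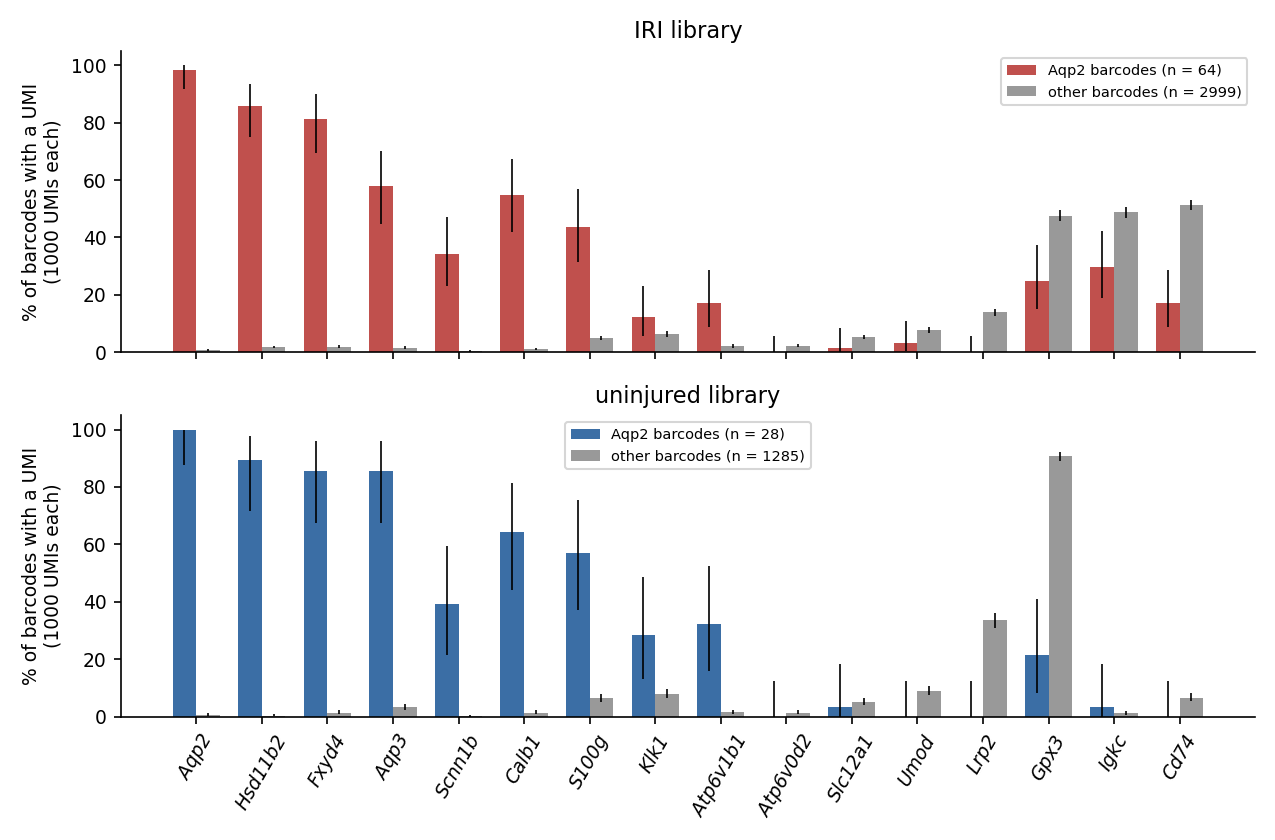
Share of barcodes with at least 1 UMI of each gene after thinning to 1000 UMIs (percent, bars, with 95% Clopper-Pearson intervals), in Aqp2 barcodes and in the other barcodes, for the IRI library (upper panel) and the uninjured library (lower panel). The first 5 genes are the principal cell markers; Igkc and Cd74 were found in 29.7% and 17.2% of IRI Aqp2 barcodes.

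Other genes of principal cells were likewise concentrated in these barcodes. Avpr2, the vasopressin receptor, stood at 342 CPM (UMIs of the gene per 1000000 UMIs) in IRI Aqp2 barcodes and 378 CPM in uninjured ones, against 1.45 and 0.756 CPM in the other barcodes of each library. Scnn1g, another sodium channel subunit, stood at 272 CPM in IRI and 284 CPM in uninjured Aqp2 barcodes. Both belong to the 12 genes with the greatest excess over the other barcodes in both libraries, which also hold Aqp2, Fxyd4, Hsd11b2, S100g, Aqp3, Calb1, Scnn1b, Kcne1, Gstm2 and Rhcg. These excesses follow from the choice of the barcodes and are not tested.

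The Aqp2 barcodes were split by S100g, the calcium-binding protein calbindin-D9k, which is abundant in the connecting tubule. S100g reached at least 10 UMIs in 24 of 64 IRI Aqp2 barcodes (37.5%, interval 25.7 to 50.5%) and in 16 of 28 uninjured ones (57.1%, interval 37.2 to 75.5%). It was at 0 in 34 IRI and 12 uninjured Aqp2 barcodes, and only 6 IRI and 0 uninjured barcodes lay in between. The limit of 10 UMIs was set after these values were seen, and the intervals of the shares in the 2 libraries overlap.

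**Figure D2:**
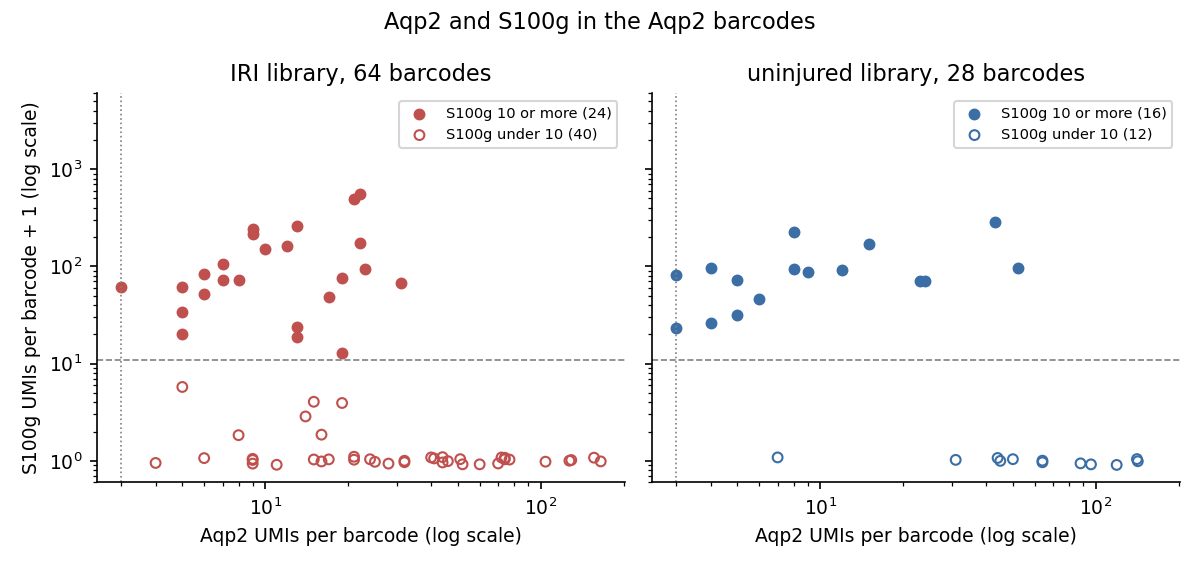
Aqp2 UMIs (horizontal, log scale) against S100g UMIs plus 1 (vertical, log scale) in each Aqp2 barcode of the IRI library (left) and the uninjured library (right). Filled points hold at least 10 S100g UMIs (24 IRI and 16 uninjured barcodes) and open points fewer; the dotted line is the Aqp2 threshold, the dashed line the S100g limit, and open points are spread slightly up and down.

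Barcodes with S100g held less Aqp2. In the IRI library their median was 11 Aqp2 UMIs, against 30 in those under the limit, and in the uninjured library it was 8 against 64. Fxyd4 followed the same order, at 1189 CPM with S100g and 5571 CPM without it in the IRI library, and at 1818 and 8742 CPM in the uninjured library. Hsd11b2 differed less between the sets, with 2668 CPM with S100g and 2610 CPM without it in IRI barcodes. In uninjured barcodes it held 3418 and 2589 CPM, with medians of 9 and 8.5 UMIs.

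Further genes were higher in the set with S100g in both libraries, of which Klk1, Kl, Spp1 and Wnk1 are examples chosen after their values were seen. Klk1, tissue kallikrein of the connecting tubule, had 339 UMIs in 10 IRI barcodes with S100g and 1 UMI in those without, and 181 and 0 UMIs in the same sets of the uninjured library. Kl, which encodes the FGF23 co-receptor klotho, stood at 1426 CPM with S100g and 233 CPM without it in the IRI library, and at 920 and 51.3 CPM in the uninjured library. Spp1, osteopontin, stood at 4398 CPM with S100g and 906 CPM without it in the IRI library, and at 2585 and 385 CPM in the uninjured library. Calb1, calbindin-D28k of the connecting tubule, stood at 3592 CPM with S100g and 1068 CPM without it in the IRI library. In the uninjured library its sums were 1665 and 1487 CPM, but 1 barcode without S100g held 28 of the 58 UMIs of that set. Medians there were 4 UMIs with S100g and 1.5 UMIs without it. Wnk1, a kinase that regulates distal salt transport, stood at 806 and 117 CPM in the IRI sets and at 372 and 103 CPM in the uninjured sets. The median mitochondrial share was 19.9% with S100g and 9.42% without it in the IRI library, and 20.5% and 8.72% in the uninjured library.

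The set without S100g had its own genes. Aqp4, a basolateral water channel of principal cells, was found only there, in 14 of 40 IRI and 4 of 12 uninjured barcodes, while all 24 IRI and 16 uninjured barcodes with S100g held 0 UMIs. Akr1b3, the aldose reductase that makes the osmolyte sorbitol, stood at 52.8 CPM with S100g and 565 CPM without it in the IRI library, and at 43.8 and 282 CPM in the uninjured library. In the IRI set without S100g, 1 barcode held 21 of its 63 UMIs. The immediate early genes Fos and Junb also lay on this side. Fos held 92.4 CPM with S100g and 736 CPM without it in the IRI library, and 0 UMIs and 743 CPM in the uninjured library. Without S100g it was found in 16 of 40 IRI and 8 of 12 uninjured barcodes. The immediate early list was uneven over all Aqp2 barcodes, with a median of 1123 CPM and a highest value of 15600 CPM in the IRI library. In the uninjured library these were 846 and 22121 CPM. Since the sets made up different shares of the members, log2 ratios within each set are given below beside pooled values for a number of genes, and the other values are pooled only.

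For IRI against uninjured Aqp2 barcodes, UMIs were summed over the barcodes of each library and a ratio was taken of CPM plus 10. Of 2685 genes with at least 50 CPM and 10 UMIs in the library where they were higher, 401 were at least 2-fold higher in the IRI library (14.9% of genes measured) and 101 at least 2-fold lower (3.76%). The filter is uneven between the libraries, since 10 UMIs are 53.4 CPM in the IRI sum but 118 CPM in the uninjured sum. When genes were instead kept by a mean of at least 100 CPM over both libraries, 52 of 1487 were higher and 63 lower, and higher genes made up 45.2% of those past the fold, against 79.9% before. Centring on the median gave 253 higher and 188 lower genes. The median log2 ratio was 0.24 over the 2685 genes and -0.04 over the 1487. Counts of genes past the fold are therefore not read as a direction of the whole profile. A gene with fewer than 10 UMIs in the uninjured sum could be measured only through the IRI library, where it had to be higher, so counts over the gene lists below are descriptions of the genes that passed this filter.

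Clu, which encodes the secreted chaperone clusterin, was the most abundant gene among those named as higher. Its UMIs ran from 0 to 67 per barcode in the IRI library, with a median of 2.5 and 53 of 64 barcodes positive, and from 0 to 6 in the uninjured library, with a median of 1 and 16 of 28 positive. The ranges overlap, but every barcode above 6 UMIs was an IRI one. The sums were 2436 CPM in IRI and 449 CPM in uninjured Aqp2 barcodes, a ratio of 5.43 (interval 3.89 to 7.77). The log2 ratio was 2.02 in the set with S100g and 4.50 in the set without it, the second resting on 3 uninjured UMIs. At 1000 UMIs per barcode Clu was detected in 67.2% of IRI and 28.6% of uninjured Aqp2 barcodes, against 8.94% and 2.33% of the other barcodes.

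Of the tubular injury genes, 4 of 12 measured were at least 2-fold higher and 0 lower, against 14.9% and 3.76% of all genes measured. Their median log2 ratio was 0.35, beside 0.24 for all genes measured. The 4 were Clu and, measured only through the IRI library, S100a6, Sox4 and Lcn2. Lcn2, the tubular injury protein NGAL, had 28 UMIs in 16 IRI barcodes and 3 UMIs in 2 uninjured ones, a ratio of 4.22 (interval 1.30 to 21.7), and within the sets its UMIs were 4 and 0 with S100g and 24 and 3 without it. S100a6, a calcium-binding protein, had 44 UMIs in 16 IRI barcodes and 1 UMI in the uninjured library, a ratio of 19.9 with an interval of 3.39 to 804. Sox4, a transcription factor of progenitor and injured epithelia, had 38 UMIs in 24 IRI barcodes and 4 UMIs in 4 uninjured ones. The keratin genes Krt8 and Krt18 did not pass the fold in the pooled sums, with log2 ratios of -0.08 and -0.40. Krt8 had log2 ratios of 1.18 with S100g (16 and 4 UMIs) and -1.25 without it (9 and 8 UMIs). Its ratio intervals there were 0.778 to 9.91 and 0.135 to 1.17. Krt18 had log2 ratios of 0.42 with S100g and -0.93 without it. Spp1 had a pooled log2 ratio of 0.56. Within the sets Spp1 had log2 ratios of 0.76 with S100g and 1.22 without it (ratio interval 1.36 to 4.37), so the pooled value lay below both. Havcr1, the gene of KIM-1, was not listed in both tables and is not analysed here.

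MHC class I genes, which present peptides to T cells, were mostly higher in the IRI library. Of 7 measured, 6 were at least 2-fold higher and 0 lower, against 14.9% and 3.76% of all genes measured. Their median log2 ratio was 1.66. Of these 6, H2-Q7, Tap2 and Psmb8 were measured only through the IRI library, and B2m, H2-K1 and H2-D1 had at least 10 UMIs in both. B2m, the invariant light chain, held 871 CPM in IRI and 189 CPM in uninjured Aqp2 barcodes (ratio 4.61, interval 2.75 to 8.25) and was detected in 44 of 64 and 11 of 28 barcodes, with log2 ratios of 2.13 in the set with S100g and 1.94 in the set without it. H2-D1 was just past 2-fold in the pooled sums and under it within both sets, with log2 ratios of 0.98 with S100g and 0.74 without it. The heavy chain gene H2-K1 held 678 CPM in IRI and 201 CPM in uninjured Aqp2 barcodes (ratio 3.38, interval 2.03 to 5.98), with log2 ratios of 2.60 in the set with S100g and 1.19 in the set without it. Psmb8, a subunit of the immunoproteasome, had 18 and 2 UMIs. The other barcodes of the IRI library held more of these genes, with a list sum of 6165 CPM in the IRI library and 941 CPM in the uninjured one, against 2837 and 957 CPM in IRI and uninjured Aqp2 barcodes. How far stray transcripts carry the difference was not tested.

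Transcripts of immune cells also differed between the Aqp2 barcodes. The macrophage list summed to 2019 CPM in IRI and 35.4 CPM in uninjured Aqp2 barcodes, against 23987 and 1696 CPM in the other barcodes. One IRI barcode held 98 of the 100 UMIs of Lyz2 and 152 of the 171 UMIs of Cd74. Immunoglobulin light chain Igkc was spread more widely, with 66 UMIs in 38 of 64 IRI barcodes and never more than 4 in a barcode, against 1 UMI in the uninjured library. In the other barcodes Igkc held 24814 CPM in the IRI library and 1045 CPM in the uninjured one. Of 12 macrophage genes listed, 11 had 0 UMIs in uninjured Aqp2 barcodes. The MHC class II genes H2-Aa, H2-Ab1 and H2-Eb1 also had 0 UMIs there, and single IRI barcodes held 49 of 59, 30 of 42 and 22 of 28 of their UMIs. These genes were measured only through the IRI library, so no count of them past the fold is given. The endothelial, fibroblast and podocyte lists had no measured gene. The part of free RNA and of mixed barcodes in these values was not tested.

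Several named genes were higher on few counts. Iigp1, an interferon-inducible GTPase, had 47 UMIs in 6 IRI barcodes and 0 in the uninjured library, which makes it at least 7.08-fold higher against 3 counts over the uninjured sum. Id3, an inhibitor of helix-loop-helix factors, held 379 CPM in IRI and 82.7 CPM in uninjured Aqp2 barcodes (ratio 4.59, interval 2.11 to 11.8), and it was higher in the sets with and without S100g, with log2 ratios of 2.12 and 1.84. Egf, the epidermal growth factor gene of the thick ascending limb, had all 35 of its IRI UMIs in 1 barcode. Mrpl55, Suds3, Vgll4, Pea15a, Srsf1, Eif3l, Kmt2e and Glg1 had 19 to 31 UMIs in the IRI library and 1 or 2 in the uninjured one, and the lower ends of their ratio intervals lay between 1.29 and 1.78.

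Cav2, a caveolin, had the most UMIs among the genes named as lower in the IRI library. It ran from 0 to 4 UMIs per barcode in the IRI library, with a median of 0 and 25 of 64 barcodes positive, and from 0 to 10 in the uninjured library, with a median of 2.5 and 24 of 28 positive. The sums were 208 CPM in IRI and 1051 CPM in uninjured Aqp2 barcodes, a ratio of 0.198 (interval 0.132 to 0.292). The log2 ratio was -2.21 in the set with S100g and -2.32 in the set without it. In the other barcodes Cav2 held 16.8 CPM in the IRI library and 16.6 CPM in the uninjured one.

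The remaining lower genes rested on fewer counts. Cox7a1, a subunit of cytochrome oxidase, had 6 UMIs in the IRI library and 20 in the uninjured one, a ratio of 0.136 (interval 0.0446 to 0.350). BC003331, Tmem168, Aff1, Pmvk, Psmd2, Got1, Top3b, Cdk5rap3 and Cdc42bpb had 2 to 8 UMIs in the IRI library and 9 to 15 in the uninjured one. With fewer than 10 IRI UMIs, Cox7a1 and these genes could be measured only through the uninjured library, where they had to be higher. Tmem168 and Pmvk, with 9 uninjured UMIs each, fell below the filter of 10 UMIs and are not among the 2685 genes measured. Ier2, an immediate early gene, had 22 of its 26 uninjured UMIs in 1 barcode, and its log2 ratio was -1.81 with that barcode and 0.61 without the highest barcode of the gene. Kap, an abundant proximal tubule gene, held 107 CPM in IRI and 614 CPM in uninjured Aqp2 barcodes, against 6597 and 18191 CPM in the other barcodes. A single uninjured barcode held 22 of its 52 UMIs, and its log2 ratio was -2.42 with that barcode and -1.71 without it.

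**Figure D3:**
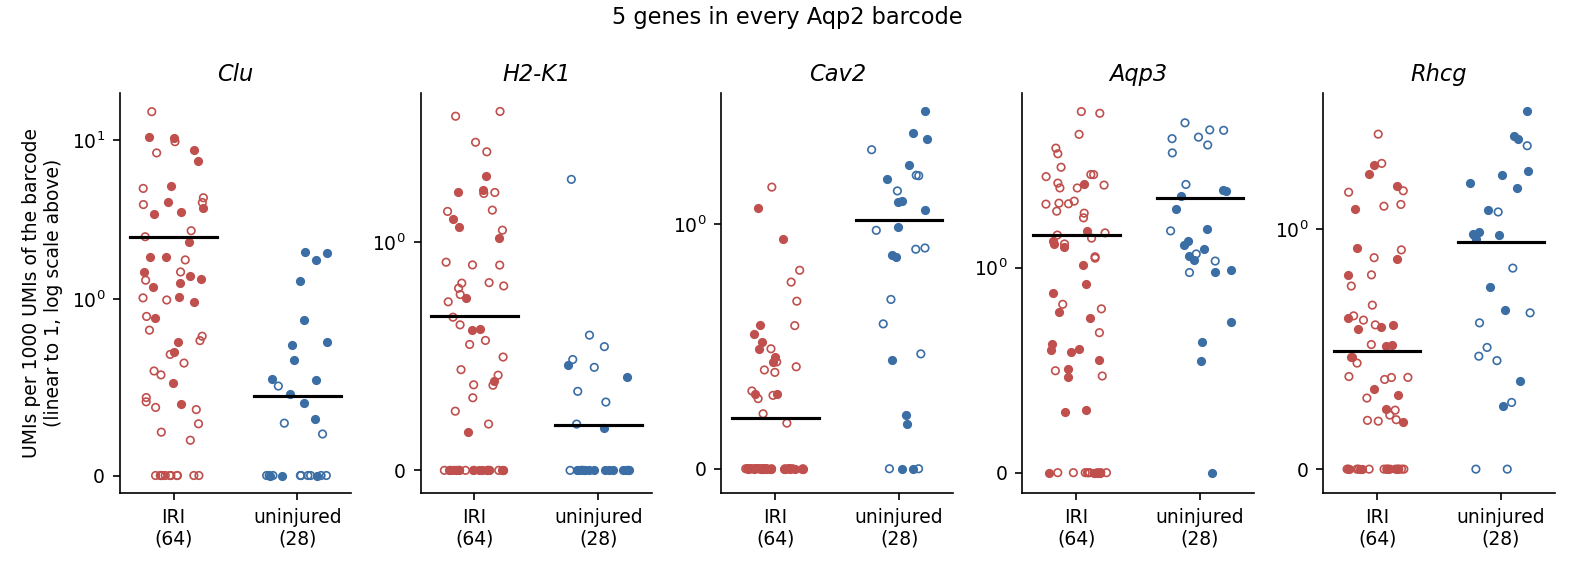
UMIs of Clu, H2-K1, Cav2, Aqp3 and Rhcg per 1000 UMIs of each Aqp2 barcode (vertical, linear to 1 and log scale above) in the IRI library (64 barcodes, left in each panel) and the uninjured library (28 barcodes, right). Filled points hold at least 10 S100g UMIs, open points fewer, and the black line is the pooled level; Cav2 was detected in 25 IRI and 24 uninjured barcodes.

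Water transport genes were mostly within 2-fold. Beside Aqp2, which chose the barcodes, 4 were measured, of which 0 were at least 2-fold higher and 1 was lower. Of all genes measured, 14.9% were higher and 3.76% lower. Aqp2 held 11149 CPM in IRI and 13171 CPM in uninjured Aqp2 barcodes. Aqp3 held 1506 CPM in IRI and 2398 CPM in uninjured ones, a ratio of 0.628 (interval 0.523 to 0.756), with log2 ratios of -0.77 in the set with S100g and -0.87 in the set without it. Aqp4, the gene past the fold, held 112 CPM in IRI and 366 CPM in uninjured Aqp2 barcodes, but its 31 uninjured UMIs came from 4 barcodes. Avpr2, the vasopressin receptor, had a log2 ratio of -0.14 and Gnas, its stimulatory G protein subunit, of -0.06.

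Sodium and potassium transport genes gave 0 higher and 1 lower of 15 measured, beside 14.9% and 3.76% of all genes measured. Their median log2 ratio was -0.25. The lower one was Sgk1, an aldosterone-induced kinase, at 128 CPM in IRI and 354 CPM in uninjured Aqp2 barcodes (ratio 0.362, interval 0.202 to 0.640). It was past the fold in the set without S100g alone, with log2 ratios of -0.54 with S100g (10 and 9 UMIs, ratio interval 0.245 to 1.86) and -2.02 without it, and the difference between the sets was not tested. Hsd11b2 had a ratio of 0.868 (interval 0.745 to 1.01) and Scnn1b of 0.841 (0.590 to 1.21). Outside these lists, Kcne1, a potassium channel subunit, had a ratio of 0.438 (0.302 to 0.634), with log2 ratios of -1.38 with S100g and -0.83 without it, and Rhcg, an ammonia transporter, of 0.520 (0.381 to 0.711). Rhcg had log2 ratios of -1.16 in the set with S100g and -0.53 in the set without it.

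Among transcription factors of the collecting duct, 1 of 8 measured was at least 2-fold higher and 0 lower, a share near the 14.9% of all genes measured. It was Hoxb7, a homeobox gene of the ureteric bud lineage, at 315 CPM in IRI and 106 CPM in uninjured Aqp2 barcodes (ratio 2.96, interval 1.46 to 6.80). With 59 and 9 UMIs, Hoxb7 was measured only through the IRI library, where it had to be higher. Its log2 ratio was 0.71 in the set with S100g (ratio interval 0.574 to 5.99) and 1.88 in the set without it. Gata2, at 288 CPM in IRI and 224 CPM in uninjured Aqp2 barcodes, had a ratio interval of 0.750 to 2.30. Of the osmotic response genes, 2 of 5 measured were higher, Nfat5 with 44 and 6 UMIs and Akr1b3 with 67 and 13 UMIs in the IRI and uninjured library. Nfat5 was measured only through the IRI library. A single IRI barcode held 21 of the 67 UMIs of Akr1b3, whose log2 ratio was 1.17 with that barcode and 0.66 without it. Akr1b3 passed 2-fold in neither set, with log2 ratios of 0.22 with S100g (4 and 2 UMIs) and 0.98 without it. Nfat5, the transcription factor of the osmotic response, had log2 ratios of 1.15 with S100g and 1.77 without it, on 3 uninjured UMIs in each set.

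Genes of energy metabolism had pooled median log2 ratios below the 0.24 of all genes measured. The filter behind that value is uneven, and genes with a mean of at least 100 CPM over both libraries had a median of -0.04. Nuclear genes of the respiratory chain were past the fold in 0 of 21 cases, with a median log2 ratio of -0.31 and a range from -0.71 to 0.05. Ndufa4, Atp5e, Cox7a2 and Uqcrb, named for the largest pooled ratios of that list, were also taken within the sets. Their log2 ratios ran from -0.89 to -0.64 with S100g and from -0.64 to -0.22 without it. Glycolysis genes gave 0 higher and 3 lower of 10, with a median of -0.35, against 14.9% higher and 3.76% lower of all genes measured. The 3 were Slc2a1, Hk1 and Eno1. Eno1, enolase, held 272 CPM in IRI and 567 CPM in uninjured Aqp2 barcodes (ratio 0.480, interval 0.318 to 0.728), with a log2 ratio of -1.15 in each set. Slc2a1 and Hk1 were past the fold in the set without S100g alone, with log2 ratios of -0.22 and -0.90 with S100g and -1.92 and -1.42 without it. In the other barcodes the summed respiratory list was 20288 CPM in the IRI library and 33190 CPM in the uninjured one.

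The stress and signalling lists are read against the 14.9% of all genes measured that were higher and the 3.76% that were lower. Of the TNF and NF-kB response genes 1 of 3 measured was higher. It was Ier3, at 123 CPM in IRI and 47.3 CPM in uninjured Aqp2 barcodes (ratio interval 0.888 to 10.3). With 23 and 4 UMIs, Ier3 was measured only through the IRI library. Interferon response genes gave 2 higher and 0 lower of 4, both measured only through the IRI library. Heat shock genes gave 0 higher and 1 lower of 9, the chaperone gene Hspa1a at 134 CPM in IRI and 366 CPM in uninjured Aqp2 barcodes (ratio 0.365, interval 0.206 to 0.638). Junction genes gave 1 higher and 0 lower of 8, and prostaglandin genes 0 of 4 in either direction.

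Some genes on the marker lists of neighbouring tubule segments were also present. The intercalated list summed to 267 CPM in IRI and 791 CPM in uninjured Aqp2 barcodes, against 481 and 439 CPM in the other barcodes. The distal convoluted list summed to 326 CPM in IRI and 165 CPM in uninjured Aqp2 barcodes, against 104 and 131 CPM in the other barcodes. Of that list, Slc12a3, which the rule limited, Pvalb and Trpm6 had 0 UMIs in the Aqp2 barcodes of both libraries. The sum came from Wnk4 (123 and 59.1 CPM), Emx1 (112 and 70.9 CPM), Sgms2 (85.5 and 23.6 CPM) and Klhl3 (5.34 and 11.8 CPM). The thick limb list summed to 379 CPM in IRI and 82.7 CPM in uninjured Aqp2 barcodes, against 1320 and 1851 CPM in the other barcodes. All 18 uninjured UMIs of Atp6v1g3, a proton pump subunit, came from 1 barcode. Another pump subunit, Atp6v1b1, was more widely spread, in 18 of 64 IRI and 18 of 28 uninjured Aqp2 barcodes, at 150 CPM in IRI and 331 CPM in uninjured ones. The proximal list summed to 833 CPM in IRI and 1985 CPM in uninjured Aqp2 barcodes, against 20643 and 55494 CPM in the other barcodes. It was uneven, with a median of 384 CPM and a highest value of 20155 CPM per IRI Aqp2 barcode. Per uninjured Aqp2 barcode these were 1051 and 19707 CPM. Slc12a1, the cotransporter of the thick limb, had 18 of its 19 IRI UMIs in 1 barcode.

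Hedgehog ligands were at or near 0. Ihh had 0 UMIs in the Aqp2 barcodes of both libraries, and Shh had 1 UMI in the IRI library and 0 in the uninjured one, so no fold is given. Floors of 3 counts correspond to 16.0 CPM in IRI and 35.4 CPM in uninjured Aqp2 barcodes.

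Neighbouring nephron classes, taken by UMI rules of at least 3 UMIs, were set beside the Aqp2 barcodes. The intercalated rule (Atp6v1g3 plus Atp6v0d2) took 87 IRI and 31 uninjured barcodes, and the thick limb rule (Slc12a1 plus Umod) took 162 IRI and 64 uninjured barcodes. The distal convoluted rule (Slc12a3) took only 18 IRI and 7 uninjured barcodes. The log2 ratio of Clu was 2.41 in Aqp2 barcodes, 2.09 in intercalated, 4.11 in thick limb and 0.28 in distal convoluted barcodes, the last from 84 and 26 UMIs. Lcn2 had 200 UMIs in IRI and 0 in uninjured thick limb barcodes. Spp1 had a log2 ratio of 0.56 in Aqp2 barcodes, 0.20 in intercalated, 2.83 in thick limb and 1.29 in distal convoluted barcodes. The keratin gene Krt8 had a pooled log2 ratio of -0.08 in Aqp2 barcodes, with 1.18 in the set with S100g and -1.25 in the set without it. Its log2 ratio was 1.27 in intercalated and 2.21 in thick limb barcodes, and distal convoluted ones held 2 and 1 UMIs. Cav2 was at 115 CPM in IRI and 152 CPM in uninjured intercalated barcodes, a log2 ratio of -0.38 beside -2.28 in Aqp2 barcodes. B2m and H2-K1 were at least 2-fold higher in the IRI library in Aqp2, intercalated and thick limb barcodes, and distal convoluted barcodes held 27 and 0 UMIs of B2m and 19 and 0 UMIs of H2-K1. With 1 library a condition, the differences between these ratios were not tested.

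**Figure D4:**
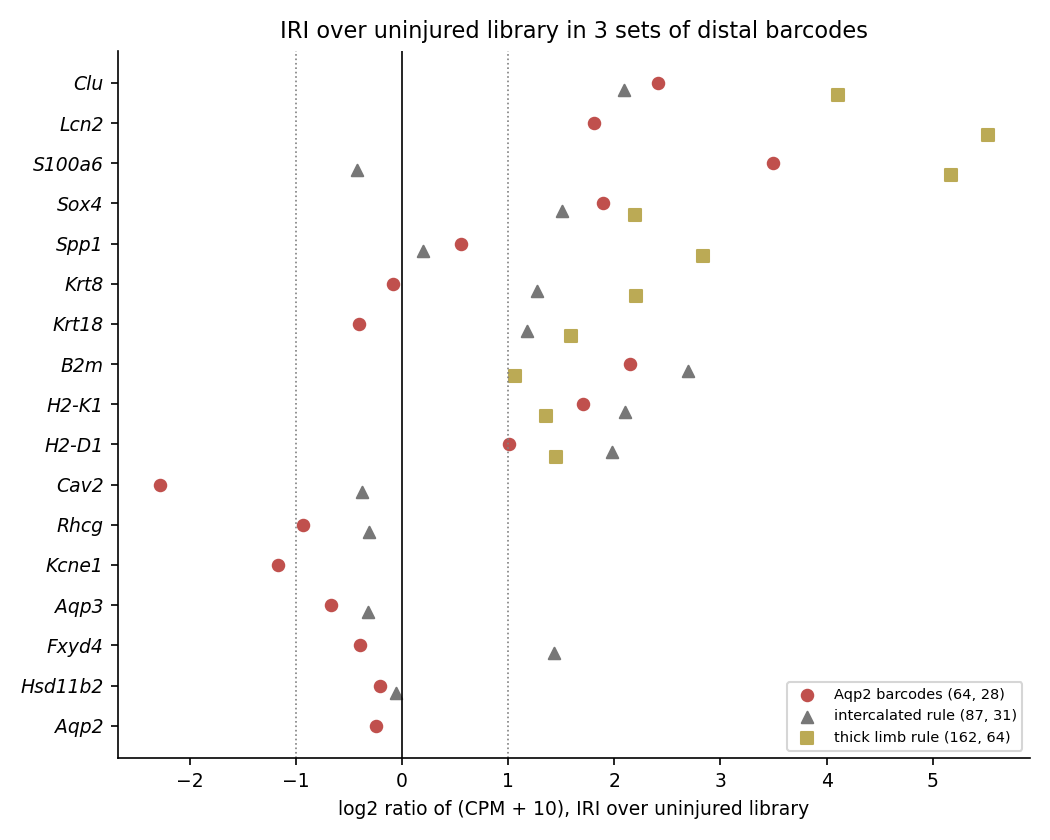
Log2 ratio of CPM plus 10, IRI over uninjured library (horizontal), for 17 genes in Aqp2 barcodes (circles, 64 and 28 barcodes), intercalated barcodes (triangles, 87 and 31) and thick limb barcodes (squares, 162 and 64). Dotted lines mark a 2-fold ratio, and a class is left out where neither library held 10 UMIs, as is the distal convoluted class with its 18 and 7 barcodes; Cav2 was at -2.28 in Aqp2 barcodes.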

How the data were processed

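Gene by barcode tables of 2 single-cell libraries, 1 per condition, were used; the bulk libraries of the same series were not used here. The deposited values are raw UMI counts, which the authors made with Cell Ranger and STAR on GRCm38/mm10, per the submitters' processing notes. Every deposited barcode held at least 1004 UMIs and at most 2496 genes. Each table was tied to its sample by the condition in its name, which matches the sample title. Antisense and overlapping genes could not be told apart, since no source used here gives the counting options.

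Members and gene lists were chosen with earlier results of these data known. UMIs were summed over the members of a library and divided by all their UMIs (CPM). Ratios used a pseudocount of 10 CPM, a 2-fold limit and a filter of 50 CPM and 10 UMIs, and ratio intervals are exact conditional Poisson intervals at 95%. Ratios of the plain sums have no pseudocount. Genes named are the 12 per direction with the largest ratio among those of at least 100 CPM that were not lower than in the other barcodes, 5 more per direction without that condition, the 12 most raised over the other barcodes, up to 4 per list and a fixed set of markers; ribosomal protein and mitochondrial genes entered only through lists. Genes that separate the S100g sets were chosen after their values were seen. Doublets were not removed: Scrublet (scanpy 1.11.5) marked 51 IRI barcodes (1.67%), 2 of them members, and 2 uninjured barcodes (0.152%), 0 of them members, so it is not relied on for the uninjured library. By marker genes of other classes, 8 IRI and 3 uninjured members were mixed. Ratio and interval code was tested on simulated data. Python 3.11.15, numpy 2.4.6, pandas 2.3.3 and scipy 1.17.1 were used.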

Additional observations from a re-analysis of the deposited data

Results flagged for a closer look

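The following genes had ratios of opposite direction in Aqp2 barcodes and in a neighbouring class, each past 2-fold; with 1 library per condition, none of these differences was tested. Iigp1 had a log2 ratio (IRI over uninjured library) of 4.71 in Aqp2 barcodes, from 6 IRI barcodes, and of -1.05 in thick limb barcodes, from 8 and 10 UMIs. Egf had a log2 ratio of 2.55 in Aqp2 barcodes, from 1 IRI barcode, and of -1.66 in thick limb barcodes. BC003331 had a log2 ratio of -2.63 in Aqp2 barcodes, from 2 and 10 UMIs, and of 1.15 in intercalated barcodes. Ier2 had a log2 ratio of -1.81 in Aqp2 barcodes, of 1.93 in intercalated and of 1.23 in thick limb barcodes, and 22 of its 26 uninjured UMIs in Aqp2 barcodes came from 1 barcode.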

How the results depend on the processing

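No paired analysis was possible because each condition has 1 library. With at most 20% mitochondrial UMIs the share of Aqp2 barcodes in the uninjured library was 3.10% (17 of 548), beside 49 of 2380 in the IRI library. Of the counts of 401 higher and 101 lower genes, these settings moved at least 1 by over 1.5 times: 253 higher and 188 lower when centred on the median, 122 and 38 with a pseudocount of 50 CPM, 1869 and 1291 with no filter, 35 and 35 with a filter of 200 CPM, and, added after seeing the data, 52 and 63 with a mean of at least 100 CPM, 152 higher with S100g, 61 lower without S100g, and 54 lower without the barcode holding most of a gene's UMIs. Averaging the CPM of each barcode also gave 401 and 101 genes, but only 315 and 86 of them were shared with the pooled sums. Among 2075 values of named genes and lists over 16 settings, 1850 stayed within the counting interval of the gene or the interquartile range of the list, 212 moved and 13 reversed. Without mixed barcodes, with the rule applied after thinning, and without the highest barcode, the reversed values were -1.27, -1.43 and -1.75 for Egf, -0.55, -0.72 and -0.49 for Slc12a1, and -0.83, -0.72 and -0.51 for the thick limb median. Ier2 reversed to 2.93 with S100g and 0.61 without its highest barcode, and Miox to 0.32 without S100g and 0.10 without its highest barcode. The cause of the other changes was not tested. Depth limits genes under 35.4 CPM in the uninjured sum.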
